A study of Mus musculus with 6 samples.

Results

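The transcriptome described here is that of 21EM15 cells, a mouse epithelial line derived from the lens, in the samples that carried a lentiviral construct with GFP and no knockdown. The study measured total RNA of 6 samples on 1-colour Illumina bead arrays, and the 3 GFP samples are its controls for 3 samples with a lentiviral Tdrd7 shRNA. Members were chosen by the group named in the scanner table, so 3 of 6 arrays enter and no knockdown value is used. The labels do not say whether the 3 samples came from separate cultures, and SDs below may therefore reflect technical spread only. They name no shRNA in the GFP construct, and every sample carried a lentiviral construct. Each array held 45281 probes, and the arrays are numbered 1 to 3 as in the scanner table.

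The lens epithelium is a single cell layer beneath the front of the lens capsule. Its cells divide, deposit the capsule as a basement membrane, and at the equator become fibre cells, which fill with crystallins and lose their organelles. In culture and after injury, lens epithelial cells are known to take on features of contractile, matrix-producing mesenchyme, as in opacification of the posterior capsule after cataract surgery. A probe was counted as detected where its detection p, the share of negative control beads at least as bright, was under 0.05 on all 3 arrays. That held for 15778 probes, 34.8% of the array. Single arrays detected 17570, 16872 and 17179 probes on arrays 1, 2 and 3. Of 19057 named genes, 8950 had at least 1 detected probe, and this share of 47.0% is the background against which each list below is read. A further 587 genes had a probe detected on 2 arrays and 665 on 1 array, while 8855 had none on any array.

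Brightness is given as a percentile, the share of the 15778 detected probes that were dimmer on the same array, averaged over the 3 arrays. It orders probe signals and not amounts of transcript, since each probe has its own hybridisation strength. Where 3 values are given for a gene, they are deposited signals in intensity units on arrays 1, 2 and 3. The median deposited signal of the detected probes was 390 on array 1, 281 on array 2 and 297 on array 3, and the lowest detected signals were 97.5, 90.6 and 89.95 intensity units. The median detected gene lay at percentile 58.0, because a gene was represented by its brightest detected probe. Olfactory receptors, which lens cells are not known to use, show how the low end of the scale behaves: 14 of 1071 were detected (1.31%), at percentiles from 2.098 to 17.7. Detected genes at or below that brightness numbered 1138, and a value in this range is called dim below. Of 378 probes whose highest detection p lay between 0.04 and 0.05 the median signal was 98.99, against 97.0 for 266 probes between 0.05 and 0.06 just outside the threshold. A probe that is not detected does not show that its gene is silent: the only probe of Sdha, a subunit of the respiratory chain used by cells with mitochondria, was at 57.1, 62.8 and 60.1 and was detected on no array. Among 9172 genes with several probes, 3611 had some probes detected and others not.

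Detected genes differed from genes not detected in promoter sequence, which the detection rule did not use. Over the 250 bases before the start site, the median ratio of observed to expected CpG, the dinucleotide that is methylated in silenced promoters, was 0.76 for 5769 detected genes and 0.30 for 6861 genes not detected. A ratio over 0.6 was found in 73.8% of detected genes and in 27.3% of genes not detected. The sequence TATAAA, on either strand, went the other way, at 6.34% of detected genes and 17.2% of genes not detected, against 12.3% of all 12630 promoters examined. GC boxes (GGGCGG, either strand) were in 63.7% of detected genes and 30.5% of genes not detected. The median share of G and C bases was 60.4% in detected genes and 51.2% in genes not detected. Its part in the TATAAA and GC box shares was not tested. Olfactory receptors, mostly not detected, had 903 promoters at a median ratio of 0.097. Their median share of G and C bases was 33.6%, and 39.4% of them held TATAAA. That is 356 promoters, beside 1183 with TATAAA among all genes not detected. These receptors are counted in the shares above, and shares without them were not examined. Among detected genes cut into 3 equal parts by brightness, the median ratio was 0.77 in the brightest part and 0.73 in the dimmest. Only the 250 bases before each start site are shown in the 3 promoters below, chosen as examples, with every CpG in capitals: the brightest gene with a single listed start site, a bright water channel, and a lens crystallin gene that was not detected on all arrays.
Rps2: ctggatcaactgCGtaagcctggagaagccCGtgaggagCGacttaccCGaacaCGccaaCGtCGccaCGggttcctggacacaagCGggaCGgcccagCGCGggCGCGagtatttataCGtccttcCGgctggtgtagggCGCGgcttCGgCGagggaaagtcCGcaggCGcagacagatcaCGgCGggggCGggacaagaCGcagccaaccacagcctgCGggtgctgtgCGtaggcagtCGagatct
Aqp1: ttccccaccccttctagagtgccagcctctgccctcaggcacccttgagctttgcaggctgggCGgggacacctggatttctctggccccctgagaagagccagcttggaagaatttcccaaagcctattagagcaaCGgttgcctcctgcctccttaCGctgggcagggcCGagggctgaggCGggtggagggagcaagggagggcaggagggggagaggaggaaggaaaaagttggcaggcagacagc
Cryaa: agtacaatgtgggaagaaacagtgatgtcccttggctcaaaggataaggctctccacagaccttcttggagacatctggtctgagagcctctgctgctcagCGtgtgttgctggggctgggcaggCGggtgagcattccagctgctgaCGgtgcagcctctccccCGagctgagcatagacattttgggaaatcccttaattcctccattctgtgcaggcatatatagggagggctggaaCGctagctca
They lie at chr17:24719813-24720062 on the plus strand (Rps2), chr6:55336049-55336298 on the plus strand (Aqp1) and chr17:31677681-31677930 on the plus strand (Cryaa), in build GRCm38.p6 and credited to RefSeq. The Rps2 promoter held 29 CpG and the ratio was 1.10, while Aqp1 held 5 with a ratio of 0.21 and Cryaa 5 with a ratio of 0.27. Aqp1 was among the 25 brightest genes although its ratio lay under the median of genes not detected.

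**Figure D1:**
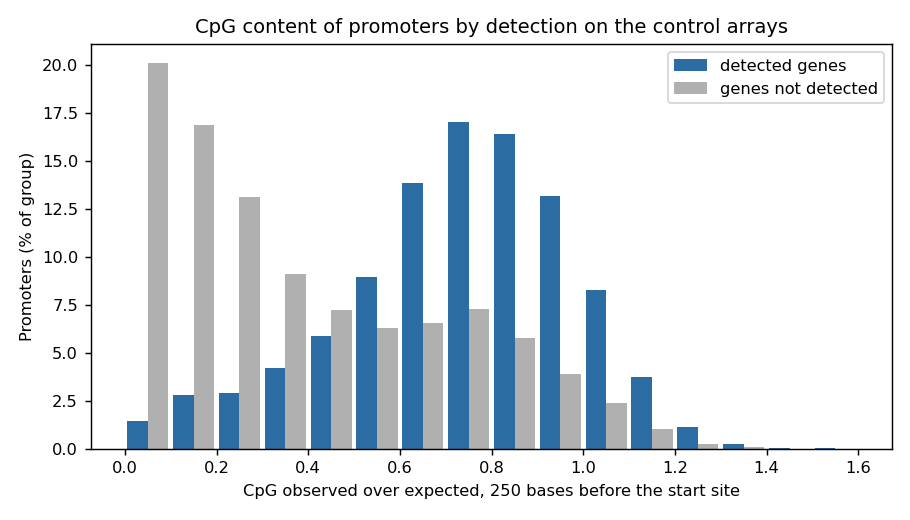
Share of promoters (y axis, % of each group) by ratio of observed to expected CpG in the 250 bases before the start site (x axis), for 5769 genes detected on all 3 control arrays and 6861 genes not detected. Detected genes centre near their median of 0.76. Genes not detected, with a median of 0.30, peak at ratios of 0 to 0.1 (20.1%) and show a smaller second rise at 0.7 to 0.8 (7.26%).

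The brightest signals came from the translation machinery, iron storage, the cytoskeleton and a few surface and secreted proteins. Cytosolic ribosomal proteins held 33 of the 100 brightest genes, and 55 of 62 of them were detected, at a median percentile of 99.1. Rps2, a protein of the small ribosomal subunit, ranked 1 with 45000.0, 43752 and 41323 on arrays 1, 2 and 3. Rplp1, of the ribosomal stalk, gave 40268, 39182 and 38993, and Eef1a1, the factor that brings aminoacyl-tRNA to the ribosome, 39526, 38797 and 37938. Many ribosomal protein genes have near-identical processed copies in the genome, so that these probes may share signal with them. Fth1, the heavy chain of ferritin, which stores iron, ranked 3 at 41081, 41318 and 37236. Lgals1, a secreted lectin that binds matrix and cell surface sugars, ranked 8 at 37082, 34424 and 34091. Acta2, the smooth muscle actin that marks myofibroblasts, ranked 11 at 39566, 30546 and 31198, brighter on array 1 than on the other two. Aqp1, the water channel of the lens epithelium, ranked 19 with 33296, 29912 and 29632, and Anxa2, a calcium-dependent membrane-binding protein, ranked 24 with 33135, 27156 and 28943. Tubulin genes Tuba1b (39662, 29669.5 and 29849) and Tubb5 (33346, 33189 and 30607) were also among the 25. CYTB, of the mitochondrial genome, was at 38114, 33624 and 34773, and ND4, of the same genome, at 38939, 21920.2 and 31956, with array 2 clearly below the others. The remaining 12 of the 25 were the ribosomal protein genes Rpl37, Rps12, Rpl41, Rpl9, Rpl38, Rpl10a, Rps29, Rpl27a, Rpl3, Rpl39 and Rpl23 and the gene model Gm6548, beside Ppia, a protein-folding isomerase at 33752, 28618 and 27670.3. Outside the translation machinery, those among the 100 brightest that were picked after their values were seen include the matrix proteoglycan Bgn at rank 36, the secreted serpin Serpinf1 at rank 39, the Wnt pathway relative Dkk3 at rank 50, the receptor kinase Axl at rank 62, the gelatinase Mmp2 at rank 73 and the thrombin receptor F2r at rank 75.

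Among lens genes, most markers of the epithelium were detected, 6 of 12 of them above percentile 75, and those of fibre cells were mostly not detected. Of 12 lens epithelium markers 9 were detected, against the background share of 47.0%, with a median percentile of 92.2. Besides Aqp1 they were led by Gja1, the connexin of epithelial gap junctions, at 9523, 7000.1 and 6092 (percentile 97.1). Sfrp1, a secreted Wnt antagonist, followed with 6878, 2562 and 5328, lowest on array 2. Pdgfra, the receptor through which PDGF drives lens epithelial growth, gave 5064, 2220.4 and 2559, and the mesenchymal list below also holds it. The ephrin Efna5 was at 1757, 1133 and 1138 and the receptor Epha2, in which mutations cause cataract, at 399.5, 378 and 252. Both cadherins of the lens epithelium were weak. Cdh2 (N-cadherin) was detected at 107, 114 and 122, within the dim range, and Cdh1 (E-cadherin) was detected on 2 arrays with 101, 83.4 and 99.36. Npnt, a matrix ligand of integrins, was likewise detected on 2 arrays. Foxe3, the forkhead factor that defines the lens epithelium, was at 85.8, 74.56 and 79.5 and was detected on no array. Pax6, the factor at the head of eye development, was detected by 1 of its 2 probes at 169, 94.4 and 94.9, and its percentile of 9.19 lay within the range of olfactory receptors. Against their label as lens epithelium, the cells thus lacked a detected Foxe3 and a Pax6 above the dim range, and Cdh1, Cdh2 and Npnt were likewise dim or not detected on all arrays, while Aqp1, Gja1, Cryab, Sfrp1, Pdgfra and Efna5 lay above percentile 75.

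Crystallins are the structural proteins of the lens, and alpha-B crystallin is also a stress-induced chaperone made in many tissues. Only 3 of 16 crystallin genes were detected (18.8%). Cryab was at 4857, 4497 and 4486 and at percentile 95.1. The other detected members, Cryba4 at 131, 112 and 98.97 and Crybb3 at 108, 98.99 and 106, were dim. Cryaa, the lens-restricted partner of Cryab, was detected on array 1 alone, with 109, 84.5 and 72.7. Crygs was detected on arrays 1 and 3, with 198, 70.1 and 161, where array 2 lay at background. The other 11, which are Cryba1, Cryba2, Crybb1, Crybb2, Cryga, Crygb, Crygc, Crygd, Cryge, Crygf and Crygn, were detected on no array. With detection p under 0.01 on all arrays, Cryab alone was detected.

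Lens fibre markers had 2 of 15 members detected (13.3%), and neither is restricted to fibres. Fyco1, an adaptor of autophagosome transport linked to cataract, was at 396, 325 and 261, and Nrcam, an adhesion protein, was dim at 97.6, 103 and 93.1. The fibre membrane proteins Mip (73.9, 74.2 and 73.4) and Lim2 (72.7, 66.7 and 74.3), the beaded filament protein Bfsp2 (75.29, 69.2 and 63.1), the fibre connexin Gja3 (71.2, 68.5 and 70.6) and the DNase Dnase2b (78.2, 77.0 and 73.6), which degrades fibre cell DNA, were detected on no array. Birc7, Caprin2, Grifin, Hsf4, Lctl, Lgsn and Sox1 were not detected on any array either, and Tmod1 on array 2 alone.

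Eye and lens transcription factors had 12 of 26 members detected (46.2%), close to the background of 47.0%, and their median percentile of 40.2 lay under the 58.0 of all detected genes. The brightest were Meis2 (4034, 2172 and 2332) and Meis1 (2531, 1392 and 1548), homeobox factors that act upstream of Pax6, and Tfap2a (2716, 1881 and 2109.5), an AP-2 factor needed for lens formation. A middle group held Otx1, Sox2, Six5, Prox1 and Six3, at percentiles 43.5, 43.2, 41.1, 39.4 and 36.3. Probes disagreed for 3 of these: Sox2 and Prox1 were detected by 1 of 2 probes each and Six3 by 1 of 3. For Otx1 the sole probe was detected, and for Six5 2 of 2. Sox2, partner of Pax6 in lens induction, gave 271, 212 and 297, and Prox1, which drives fibre cell elongation, 198, 198 and 305. Eya3 lay at percentile 21.2, and Eya2 and Eya4, at 11.5 and 1.98, were dim. Probes also disagreed for Meis2 (2 of 4 detected), Meis1 (2 of 3), Eya3 (2 of 3), Eya2 (1 of 2) and Eya4 (1 of 3). Eya1, Gata3, Maf and Mab21l1 were detected on 2 arrays and Lhx2 on 1. Six2, Six4, Pitx3, Otx2, Mab21l2, Rax, Foxe3, Hsf4 and Sox1 were detected on none. Of 29 genes linked to cataract, 12 were detected (41.4%), led by the intermediate filament Vim (26327, 25478 and 29280.1), the capsule collagen Col4a1 (12695, 5051 and 6588) and Cryab. Tdrd7, the RNA granule gene that the study knocks down in its other samples, was at 854, 804 and 905 and percentile 74.61. Chmp4b of the membrane-scission machinery (2062, 1786 and 1865) and Lss of cholesterol synthesis (1588, 559 and 877) were detected as well.

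**Figure D2:**
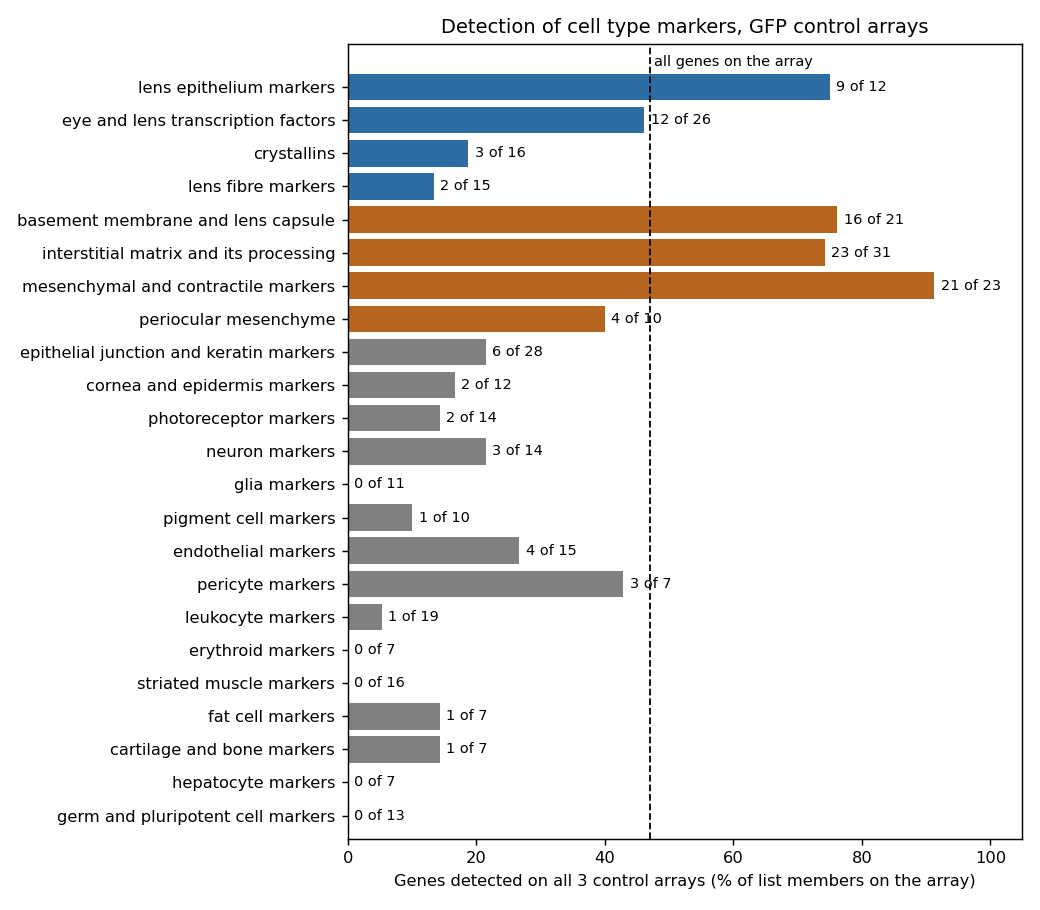
Bars give the share of each marker list's members on the array that were detected on all 3 control arrays (x axis, %), with counts beside them; blue marks lens lists, brown matrix and mesenchymal lists, grey other cell types, and the dashed line is the 47.0% of all genes. Mesenchymal, capsule, matrix and lens epithelium lists exceed the line at 74.2% to 91.3%, and all the grey lists lie below it.

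Genes of the basement membrane, which in the lens forms the capsule, were detected for 16 of 21 members (76.2%) at a median percentile of 82.5. The network-forming collagen IV chains Col4a1 (12695, 5051 and 6588) and Col4a2 (11659.6, 4669.9 and 5876), which assemble together and lie head to head on 1 chromosome, were both brightest on array 1 and dimmest on array 2. All 6 collagen IV chains were detected, with Col4a5 at percentile 76.4, Col4a4 at 65.0, Col4a6 at 46.8 and Col4a3 at 43.8. Of the laminins, which form the second network, Lamc1 (2416, 2570.1 and 1850.2), Lama5, Lamb2 and Lamb1 were detected. Lama1, the alpha chain known from the lens capsule, was at 78.2, 66.9 and 70.3 and was not detected on any array, nor were Lama4, Lamb3 and Lamc3, and Lama2 was detected on array 1 alone. The linker proteins Nid1 (2375, 1743 and 2253) and Nid2 (846, 492 and 502) and the proteoglycans Agrn (3382, 3336 and 4019.6) and Hspg2 (3928, 2833 and 1662) were detected, as was Col18a1 (2571, 2225 and 1612), a basement membrane collagen. Sparc, a matricellular protein whose loss gives cataract in mice, was the brightest member at 21824, 15358 and 14863. Of 25 integrin genes, receptors for these proteins, 13 were detected (52.0%), near the background of 47.0%. Itgb5 led (6902, 4139 and 4804), followed by Itga11 (2804, 1240.3 and 2059.6), a collagen receptor of mesenchymal cells. Itga3, a laminin receptor subunit, was at 2223, 1552 and 1288. Itga6, the laminin receptor subunit known from lens epithelium, was at 133, 149 and 114.

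Interstitial matrix genes and their processing enzymes had 23 of 31 members detected (74.2%), with a median percentile of 79.2, and 9 of them above percentile 90. Bgn, a small proteoglycan that binds collagen fibrils, was the brightest at 28899, 21693 and 26302. The collagen-specific chaperone Serpinh1 (16996, 15079 and 13520.4), the crosslinking oxidase Loxl1 (17387, 8942 and 12965) and the microfibrillar collagen Col6a1 (15053, 8007 and 11449) followed, with Lox, a relative of Loxl1, at 5896, 2799.9 and 3835. Of the fibrillar collagens, Col5a1 was bright at 9378, 5739.9 and 5480.2, Col1a1 intermediate at 1795, 787 and 937, and Col3a1 lower at 574, 161 and 356. The sole probe of Col1a2, whose protein pairs with that of Col1a1 in type I collagen, was at background with 64.3, 75.16 and 71.0. Fn1, the fibronectin gene, gave 2981, 2419 and 1402 and Tnc, for tenascin C, 1813, 1554 and 824, both lowest on array 3, while the proteoglycan Dcn was lowest on array 2 at 1153, 387 and 1505. The genes for elastin (Eln) and lumican (Lum) were not detected on any array. Over the collagen family as a whole 21 of 41 genes were detected (51.2%), near the background. Of 21 matrix metalloproteinases 12 were detected (57.1%, against the background of 47.0%). Mmp2 (18225, 16351 and 17823) and Mmp14 (6068, 5918 and 6423), its membrane-bound activator, were in front, and Mmp3 was at 955, 265 and 257. The inhibitors Timp1 (10299.8, 7970.4 and 5748), Timp2 (8334, 4097 and 4829.9) and Timp3 (4013, 1543 and 1910.3) were bright, and Timp4 (64.8, 65.7 and 68.0) was not detected.

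Mesenchymal and contractile markers had the highest detected share of all marker lists, 21 of 23 (91.3%), at a median percentile of 81.9. Where every probe of a gene had to be detected, 9 of 23 were counted, a smaller share than the 6 of 12 lens epithelium markers. Cytoskeletal members led: Acta2, Vim, and the tropomyosin Tpm1 (24281, 16425 and 14925), followed by the calcium-binding S100a4 (7316, 4842 and 5689). Transcription factors that repress epithelial genes during epithelial-mesenchymal transition were detected together, with Zeb1 at 3055, 1914 and 1698, Twist1 at 2261, 1654 and 1425, Snai2 at 1702, 1127 and 1154 and Zeb2 at 1523, 1107 and 1232. Snai1, of the same family, was dim at 128, 101.8 and 99.995. The homeobox factor Prrx1, typical of mesenchyme, gave 901, 1094 and 929. Not every contractile gene followed: Tagln, a smooth muscle actin-binding protein, was low at 307, 97.8 and 125, and Cnn1, for calponin, was at 79.9, 76.0 and 76.3 and detected on no array. Fap, a marker of activated fibroblasts, was not detected either. Of 10 genes of periocular mesenchyme, the tissue beside the lens, 4 were detected (40%, against the background of 47.0%). Msx1 was at 999, 420.0 and 869 and Foxc1 at 448, 253 and 315, with Tbx18 lower and Foxc2 dim at percentile 14.9.

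Epithelial junction and keratin markers stood at the other end, with 6 of 28 detected (21.4%) and a median percentile of 23.1. Detected were Itgb4 of hemidesmosomes (418, 342 and 384), the tight junction scaffold Tjp1 (327, 239 and 258), Cldn1 (203, 122.9 and 190.2), Itga6, and the dim Krt8 and Dsg2. Epcam (56.6, 54.8 and 55.4), Ocln (66.5, 68.3 and 63.8), Krt18 (76.3, 62.8 and 69.3), Jup (70.1, 55.8 and 59.8), and the factors that maintain epithelial splicing and identity, Esrp1 (64.8, 65.5 and 61.6) and Grhl2 (61.9, 67.0 and 54.0), were detected on no array. Of 49 keratins 3 were detected (6.12%), the brightest being Krt10 (599.9, 387 and 363). Of 23 cadherins 4 were, led by Cdh13 (790.0, 872 and 810.2), a lipid-anchored cadherin, and by Cdh11 (229.6, 162 and 243), which is known from mesenchyme. Claudins had 3 of 20 detected, led by Cldn12 (1898, 1400.2 and 1136), and 5 without array 2. Connexins other than Gja1 were represented by Gjc1 (369.5, 221 and 275) and a dim Gja6.

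**Figure D3:**
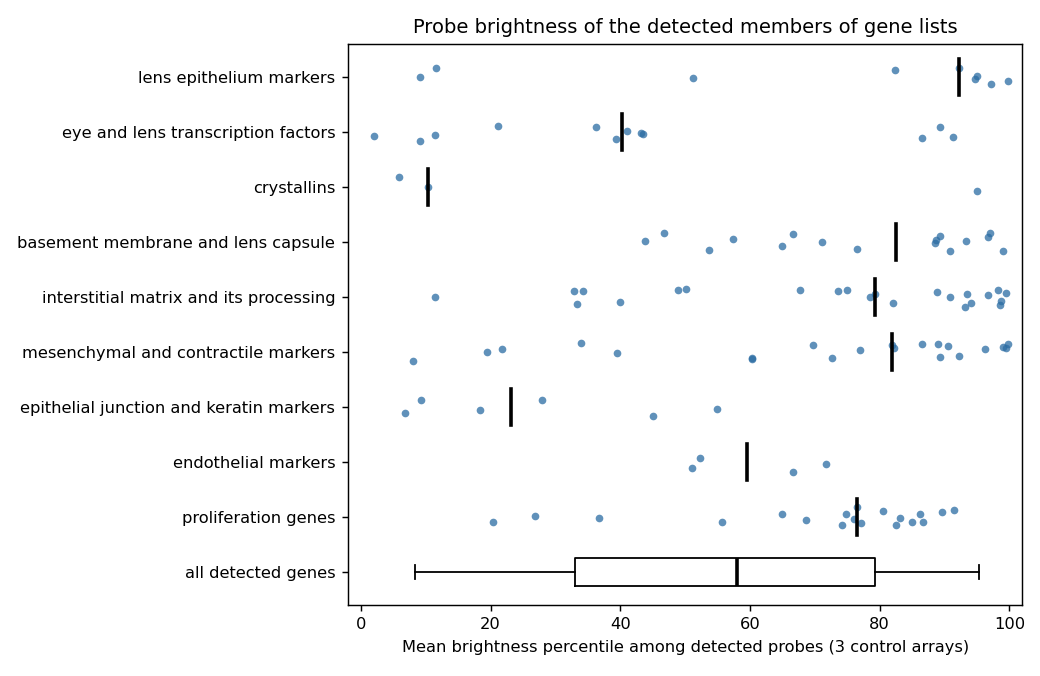
Each point is a detected gene of the list on the left at its mean brightness percentile over the 3 control arrays (x axis), black bars are list medians, and the box shows all detected genes with quartiles and whiskers from the 5th to the 95th percentile. Lens epithelium, matrix and mesenchymal lists have medians of 79.2 to 92.2, above the 58.0 of all detected genes, and epithelial junction genes have a median of 23.1.

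Markers of other cell types of the eye and body were mostly not detected. No member was detected among 11 glia, 7 erythroid, 16 striated muscle, 7 hepatocyte and 13 germ or pluripotent cell markers. Detection of striated muscle markers rose to 2 without array 3 (Myog and Tnni1), and of germ cell markers to 1 without array 2 (Zfp42). Photoreceptor markers had 2 of 14 detected, Rom1 (208, 130.4 and 143) and Sag (153, 130.3 and 129), while Gnat1, Crx and Nrl were not detected on any array. Of pigment cell markers only the retinol dehydrogenase Rdh5 (572, 345 and 280.4) was, with Tyr, Mlana and Rpe65 at background. Neuron markers had 3 of 14, of which Gap43 (395, 362 and 388), a growth cone protein, was well inside the detected range and Map2 and Stmn2 were dim. Leukocyte markers had 1 of 19, Coro1a (165, 104 and 122.98), within the dim range, and 3 without array 2, with Ptprc, the pan-leukocyte antigen, at 68.5, 75.16 and 67.5. Endothelial markers had 4 of 15, namely Egfl7 (834, 736 and 658), Plvap (559, 569 and 675), Flt1 (494, 349 and 249) and Ramp2 (395, 256 and 364). The defining endothelial genes Pecam1 (82.9, 79.1 and 75.9), Cdh5 (79.6, 72.3 and 83.7), Kdr (71.1, 77.5 and 71.5) and Tek (85.0, 79.8 and 64.7) were detected on no array. Pericyte markers had 3 of 7, led by Pdgfrb (1402, 506 and 695), which the mesenchymal list also holds. Cornea and epidermis markers had 2 of 12, Aldh3a1 and the keratin Krt10, which is given above. Aldh3a1, the abundant dehydrogenase of cornea, was at 8441, 2338 and 4871 and percentile 94.6, whereas the corneal keratin Krt12 (71.6, 65.6 and 65.8) and the basal factor Trp63 (78.7, 63.1 and 71.2) were not detected. Sox9, a factor of cartilage and other progenitors, was at 1178, 1189.6 and 1081, with the cartilage gene Acan at 91.4, 76.6 and 74.5. Lpl, a lipase of fat cells, was at 624, 482 and 469, with Adipoq at 83.8, 78.1 and 75.9.

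For growth factors, 18 of 30 ligands (60.0%) and 25 of 36 receptors (69.4%) were detected, at median percentiles of 59.5 and 69.5. PDGF ligands and receptors were present together: Pdgfa was the brightest ligand (3089, 2192 and 1618), with Pdgfb and Pdgfc behind it, and Pdgfra the brightest receptor. In the TGF-beta family, ligands Tgfb2 (885, 656 and 841), Tgfb3 (779, 452 and 465) and Tgfb1 (438, 283 and 346) and the receptors Tgfbr2 (3793, 1304 and 2233), Tgfbr1 (1138, 484 and 569) and Tgfbr3 (675, 623 and 654) were all detected. Bmp4, which is required for lens induction, gave 1103, 508 and 1215, with receptors Bmpr2 (2005, 1119 and 1035) and Bmpr1a (1541, 894 and 1151). For FGF, the signal that drives fibre differentiation, the receptors Fgfr2 (1459.7, 607 and 807) and Fgfr1 (221, 123.2 and 160.2) were detected, while Fgfr3 and Fgfr4 were not detected on any array. Fgf7 (1110.1, 419 and 293) and Fgf10 (657, 323 and 334), ligands of the epithelial Fgfr2 isoform, were the only FGF genes of the list detected. Vegfa (2145, 894 and 892), Inhba (1421, 1206 and 769) and Wnt5a (1719, 630.2 and 1221) completed the bright ligands. Egfr (1795, 1403 and 869.9), Igf1r (894, 732 and 865) and the Frizzled receptor Fzd6 (1791, 906 and 1261) were further receptors above percentile 70. Erbb3, Erbb4, Met, Kdr and Ngfr were detected on no array. Of 13 Eph receptors, 4 were detected (30.8%, under the background of 47.0%), of which Ephb4 (1827, 1436 and 1689) and Epha2 were above the dim range. Of 8 ephrins, 6 were detected (75%), with Efnb1 (1147, 658 and 799) next after Efna5. Among 34 chemokines 11 were detected (32.4%), also under the background, at a median percentile of 43.3. The brightest were Ccl7 (7655, 4227 and 3413), Cxcl12 (1805, 1602 and 2777) and Ccl9 (2103, 1425 and 673).

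Proliferation genes had 19 of 23 members detected (82.6%), at a median percentile of 76.5. They included subunits of the replicative helicase, Mcm4 (4691, 1955 and 2479) and Mcm5 (2462, 1327 and 1554), the mitotic kinase Plk1 (2625, 2022 and 2278), the survivin gene Birc5 (2223, 1536 and 1622) and the topoisomerase Top2a (1991, 1775 and 1115). Ccnb2 (58.0, 60.9 and 59.4) and Bub1 (64.5, 63.2 and 59.7) were at background. Ccnd1, the D-type cyclin that starts the cycle, was at 13089.8, 9117 and 9669.8. Of cell cycle inhibitors, Cdkn1a (2639, 6706 and 2029) and Cdkn2c (2556, 1768 and 2677) were bright. Cdkn2b (80.3, 75.8 and 68.9) was not detected, and Cdkn2a, a locus often lost in immortal lines, was at 108, 100.01 and 90.37, with 1 of 3 probes detected at percentile 3.24, within the dim range. Tert, the telomerase gene, was at 66.1, 58.8 and 55.8 and was not detected. Xist, the RNA made from the inactive X chromosome, was detected by all 4 of its probes, at 1211, 1124 and 926. Of Y-linked genes, Eif2s3y (79.3, 78.4 and 70.6) and Kdm5d (67.4, 62.5 and 64.8) were detected on no array, and Uty was dim at 119, 114 and 119, with 1 of 4 probes detected. Hox genes, which mark trunk position and are silent in the anterior head, had 3 of 38 detected (7.89%), Hoxc10, Hoxa13 and Hoxc4, all at percentiles under 6 and none with detection p under 0.01. Without array 2 the Hox count was 5. Imprinted genes had 6 of 12 (50%), near the background of 47.0%, with Ndn (1346, 639.6 and 2034), Igf2r (857, 1009 and 671) and Igf2 (375, 139 and 633) in front.

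Genes of general cell upkeep were detected almost throughout. Mitochondrial ribosomal proteins had 73 of 76 members (96.1%), proteasome subunits 33 of 39 (84.6%), and reference genes 12 of 13 (92.3%). Other families were covered less evenly: all 4 tropomyosins were detected, but 6 of 8 galectins (75%), 8 of 12 annexins (66.7%) and 10 of 16 S100 proteins (62.5%). The S100 proteins were led by S100a11 (28218, 23682 and 21405). P-body and granule genes, the setting in which Tdrd7 acts, had 14 of 17 (82.4%), with G3bp1 (4504, 3294 and 3804), G3bp2 (4509.6, 2822 and 3675) and Caprin1 (2491, 1732 and 1375) of stress granules in front. Decay factors Ddx6 (1022, 949 and 696), Edc4 (478, 307 and 359) and Dcp1a (453, 279 and 289) were also detected, while Dcp2, the decapping enzyme, was detected on 1 array only. Tdrd6, a relative of Tdrd7 in germ cells, was at 70.3, 71.8 and 61.6 and was detected on none. Of the small heat shock proteins, Hspb1 gave 199.5, 197 and 351 at percentile 40.7. Gapdh was at 11813, 11048 and 9349.9, Actb at 30218, 23733 and 26649.9 and Hprt at 5145, 3288 and 2673.

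The 3 arrays were alike over most genes and differed in a few groups. After background correction and quantile normalization (neqc), values of the 8950 detected genes correlated across genes at Pearson's r of 0.970 for arrays 1 and 2, 0.982 for arrays 1 and 3, and 0.976 for arrays 2 and 3. Genes are not independent replicates, so these values describe the arrays only. A difference of at least 2-fold was found for 467 genes (5.22%), 179 genes (2.00%) and 302 genes (3.37%) in the same pairs. The median gene had an SD of 0.21 log2 units. Array 1 had the brightest deposited signals, as given above. After neqc, the mean deviations over all detected genes were 0.021, -0.015 and -0.006 log2 units on arrays 1, 2 and 3. Any remaining part of array brightness in these differences was not tested. Of the 100 genes with the largest SD among those above percentile 50, array 2 gave the lowest value for 54 and array 1 the highest for 44.

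Immediate early genes, which are induced within minutes by serum, stretch or handling, differed most between arrays of the 35 lists, with a median SD of 0.94 log2 units over their members against 0.21 over all detected genes. All 17 detected members were above their own mean on array 1 and none was on array 3, with mean deviations of 0.93, 0.12 and -1.06 log2 units on arrays 1, 2 and 3. Over all 8950 detected genes, 4587 were above their own mean on array 1 and 4371 on array 3. Egr2, a zinc finger factor, had the largest SD among genes above percentile 50, at 2.24 log2 units, with signals of 3964, 497 and 189.5. Egr3 gave 2301, 193 and 157, so that array 1 stood apart from both others. Fos, of the AP-1 complex, gave 5406, 4156 and 409.9, so that here array 3 stood apart from both others. Egr1 (28772, 10326 and 6753), Dusp1 (9913, 6178 and 2141) and Junb (4117, 2387 and 1251) were in the order of arrays 1, 2 and 3, and Ccn2, a secreted matricellular target of YAP, was high on array 1 alone at 24700.2, 6221 and 7517. Edn1, the gene of the vasoconstrictor endothelin 1, and the phosphatase gene Dusp5, which are not on the list, were also highest on array 1, at 1349, 339.5 and 163 and 914, 214 and 205.

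Interferon-stimulated genes were detected for 23 of 29 members (79.3%), at a median percentile of 66.3, and all 23 were above their own mean on array 3. Their mean deviations were -0.40, -0.24 and 0.64 log2 units on arrays 1, 2 and 3. Isg15, a ubiquitin-like modifier, gave 1786, 1067 and 4588, Ifit3, which binds viral RNA complexes, 1739, 2739 and 6390.4, and Usp18, which removes Isg15 from proteins, 1167, 842 and 2581. Array 3 was highest for each of them. Ifitm3 (24765, 19059 and 27240.4), a block to virus entry, and the immunity GTPase Irgm1 (11873, 14560.1 and 11809) were bright on all arrays and varied less. Ifit1, Oas1a, Ifih1, Xaf1 and Iigp1 were detected on no array, and Mx1 on array 3 alone with 86.2, 80.5 and 139.7. The core of the interferon response element, a pair of GAAA half-sites spaced by NN, any 2 bases, on either strand and with overlapping matches counted, was present before 7 of the 16 detected members with a single listed start site (43.75%), against 3.11% of all promoters examined. In the promoters below, of the 2 members among the 15 genes of largest SD, its matches are in capitals.
Isg15: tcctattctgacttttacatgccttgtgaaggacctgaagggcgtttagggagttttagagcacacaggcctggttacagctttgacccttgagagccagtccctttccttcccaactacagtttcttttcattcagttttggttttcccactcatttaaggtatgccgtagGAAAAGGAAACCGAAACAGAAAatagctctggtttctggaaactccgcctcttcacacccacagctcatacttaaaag
Ifit3: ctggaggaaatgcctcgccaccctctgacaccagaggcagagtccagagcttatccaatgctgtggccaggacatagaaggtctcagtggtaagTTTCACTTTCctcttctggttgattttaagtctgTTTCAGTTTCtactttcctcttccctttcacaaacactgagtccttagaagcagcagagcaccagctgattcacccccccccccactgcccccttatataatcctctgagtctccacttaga
The first lies at chr4:156200819-156201068 on the minus strand and holds 3 overlapping matches that start 78, 72 and 66 bases before the start site. The second lies at chr19:34583279-34583528 on the plus strand, with 2 matches on the opposite strand that begin 156 and 122 bases before it. Both are from RefSeq, build GRCm38.p6, and a match is a stretch of letters and not a measured binding site.

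**Figure D4:**
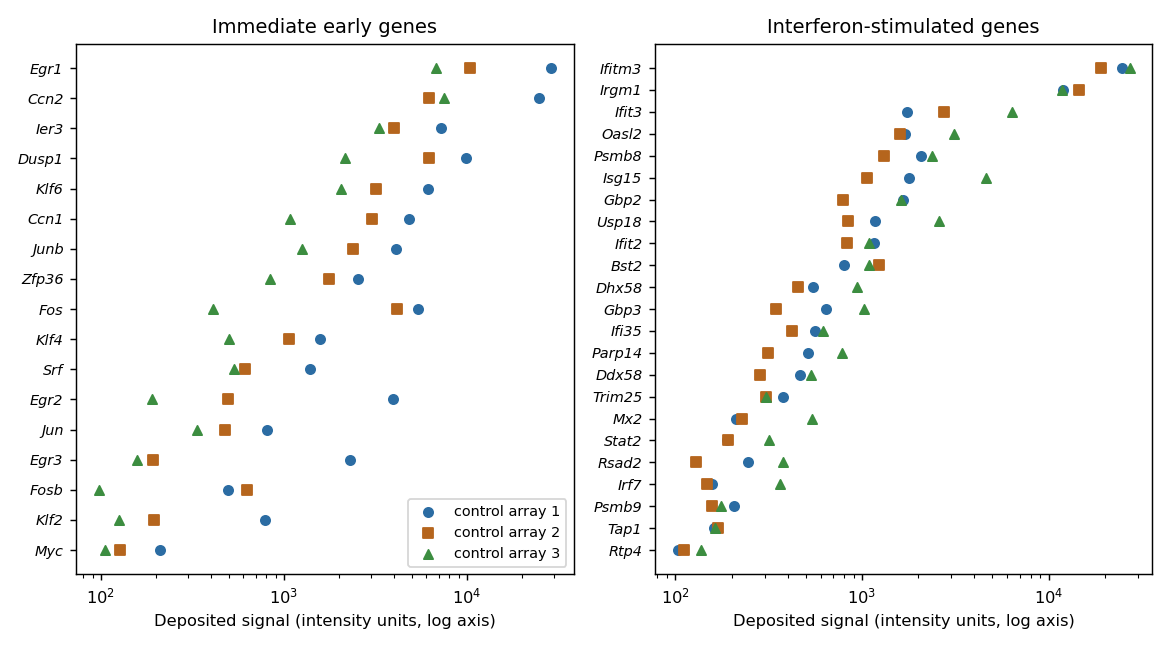
Deposited signal (x axis, intensity units, log axis) of each detected immediate early gene (left) and interferon-stimulated gene (right) on control arrays 1, 2 and 3, with genes ordered by brightness. Array 1 is the highest for most immediate early genes and array 3 the lowest, whereas array 3 is the highest for Isg15, Ifit3 and Usp18.

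Other genes set array 2 apart. Cdkn1a, the p53 target that halts the cycle, gave 2639, 6706 and 2029, and Mdm2, the p53 target that degrades p53, 1918, 3506 and 1340.2, both highest on array 2. So were Ddit3, a factor of the unfolded protein and amino acid stress response (907, 2555 and 497), the mitochondrial protein gene Chchd10 (590.4, 1821 and 397) and Prf1, the pore protein of cytotoxic cells (201, 1212 and 416), for which Gzmb, another gene of such cells, was at 58.3, 55.3 and 57.9. Low on array 2 were Lrrc15, a membrane protein of matrix-producing cells (1772, 214 and 1070.1), the BMP-related Gdf10 (1291, 231 and 629) and Sertad4 (1176, 187 and 527). Interstitial matrix genes as a list were at 0.21, -0.24 and 0.04 log2 units on arrays 1, 2 and 3, with 6 of 23 above their own mean on array 2, against 4430 of 8950 detected genes. Proliferation genes were at 0.26, -0.13 and -0.14, with 17 of 19 above their own mean on array 1. Imprinted genes as a list were highest on array 3, at 0.44 against -0.17 and -0.27 on arrays 1 and 2. Of 6 detected members, 4 were above their own mean on array 3, against 4371 of 8950 detected genes. Ndn and Igf2 were highest on array 3 by the signals given above, and Igf2r and Peg10 on array 2. For P-body and granule genes the mean deviation was within 0.01 log2 units of 0 on each array, while their median SD was 0.21 log2 units, as over all detected genes. The mitochondrial genes ND4L (2487, 335 and 982) and ND5 (227, 524 and 649) varied in opposite ways, array 1 being the highest for ND4L and the lowest for ND5.

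**Figure D5:**
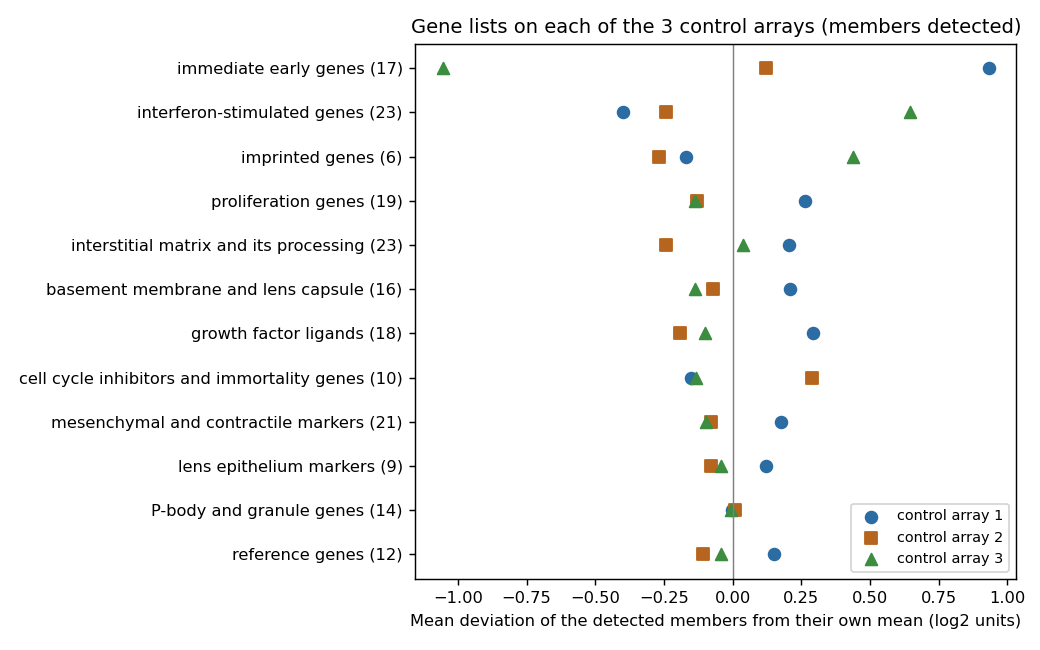
Mean deviation of each list's detected members (number in brackets) from their own mean over the 3 control arrays (x axis, log2 units after neqc), 1 symbol per array. Immediate early genes range from -1.06 on array 3 to 0.93 on array 1, interferon-stimulated genes from -0.40 on array 1 to 0.64 on array 3, and the means of P-body genes lie near 0 on all.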

How the data were processed

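Total RNA was extracted with a column kit and DNase, amplified to biotinylated cRNA and hybridised to 1-colour Illumina bead arrays, per the labels' protocols. The deposited scanner table gives probe intensities on a linear scale and, per the file headers, a detection p-value for each probe on each array, which falls in whole steps of 1/936. The authors' processed intensities are, from the values, a straight line of each scanner column, but no source used here names the software. The 3 control columns were assigned by the group in their names. Probes were named from GEO's platform annotation: 34885 had 1 symbol, 18 several and 10378 none, and 34807 matched a RefSeq gene ID of GRCm38.p6 with no symbol changed. A gene counted as detected if any of its probes had a detection p under 0.05 on all 3 arrays. Detection and percentiles used the deposited signals; spread used neqc (limma 3.58.1, R 4.3.3, offset 16), tested on simulated data. With 1 group no test between groups was made. The number of arrays limits the precision.

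Members and lists (35 lists, 27 families) were chosen with earlier results of these data known. Genes were named by rule: the 25 brightest, every crystallin, lens marker and eye factor, up to 6 detected and 4 undetected genes of each other list, up to 4 of each family, and the 15 with the largest SD above percentile 50. Further list members and genes given in the text were chosen after their values were seen. Alternatives were the detection threshold, the arrays and probes required, the values ranked, and the normalization. The knockdown arrays were not used here.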

Additional observations from a re-analysis of the deposited data

How the results depend on the processing

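Genes detected numbered 7926 with detection p under 0.01, 9537 with detection on at least 2 arrays, 10202 on at least 1 array, and 8945 where the brightest probe alone decided, against 8950 as reported. They fell to 5339 where every probe of a gene had to be detected, as that alternative's construction requires. Leaving out 1 array gave 9042 to 9269 genes and 16052 to 16475 probes. Requiring every probe brought the mesenchymal list to 9 members, the lens epithelium list to 6 and the lens fibre list to 0. Crystallins detected ranged from 1 with detection p under 0.01 to 5 with at least 1 array. Over all lists and families, 65 of 496 alternative counts moved by more than 1.5 times, 30 of them where every probe was required. Brightness was less steady: 344 alternative percentiles were counted as moved and 1364 as unchanged. For median percentiles of lists and families, 50 were counted as moved and 160 as unchanged. Mean deviations by array moved in none of 192 alternatives by more than the spread between arrays. The median SD was 0.17 log2 units with quantile normalization alone. No paired analysis was possible because a single group was described, with no test. The scanner columns carry no replicate number, but arrays 1, 2 and 3 matched the processed values of GFP replicates 1, 2 and 3 at Pearson's r of 1. Signal near background limits the dim genes, whose presence rests on the threshold.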

Other observations

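Some of the brightest probes have no gene name in the annotation. Of 10396 probes without a single symbol 20.2% were detected, against 39.2% of named probes. The brightest of them, ILMN_2702561, gave 39650, 38428 and 36598 intensity units on arrays 1, 2 and 3, which is as bright as the leading named genes. ILMN_2454649 gave 39556, 34435 and 39695. By chromosome, the share of genes detected was lowest on the Y chromosome, with 2 of 19, and highest on chromosome 5, at 54.0%, with the X chromosome at 38.3%.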
